A study of Mus musculus with 6 samples.

Results

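The 10 genes described here, the calpain proteases and their inhibitor calpastatin, are *Capn1*, *Capn2*, *Capn3*, *Capn5*, *Capn7*, *Capn10*, *Capn11*, *Capn15*, *Capns1* and *Cast*, out of 55453 gene symbols in the count table. They were selected on the counts of *Capn11*, which had reads in PP2A-KO libraries and none in WT libraries, in order to see whether other members of the family also shifted. The contrast for *Capn11* was therefore used in choosing the family, and its values are given as a description without a test. Calpains are cytosolic cysteine proteases that are activated by calcium and cut their substrates at a limited number of sites, so that a substrate is remodelled and not destroyed. The classical enzymes are heterodimers of a large catalytic subunit, encoded by *Capn1* or *Capn2*, and a shared small regulatory subunit, encoded by *Capns1*. Calpastatin, the product of *Cast*, is their specific inhibitor, and in macrophages the system is known for its part in adhesion, spreading and migration and for cutting IκBα.

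RNA-Seq was done on bone marrow-derived macrophages (BMDM), which are macrophages grown from marrow cells with macrophage growth factor, in 3 PP2A-KO libraries and 3 WT libraries. PP2A-KO cells came from mice in which Cre, expressed from the *Lyz2* (LysM) promoter, deletes a floxed exon of *Ppp2ca*, the catalytic subunit PP2Ac of protein phosphatase 2A. Both groups are on a C57BL/6 background. The study's floxed Cre mice came from the University of Michigan, and its WT mice from The Jackson Laboratory. Differences of colony and of the Cre and floxed alleles therefore cannot be told apart from the loss of PP2Ac. The study describes cGAMP-stimulated BMDM for its RNA-Seq, whereas the labels give neither a treatment nor an age, and although the study states biological triplicates for its cell experiments, the sources used here do not say whether these libraries came from separate animals, so p-values measure the spread between these libraries.

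Library totals ran from 35257156 to 47390899 counts. *Ppp2ca* had 47, 33 and 38 counts in the PP2A-KO libraries and 10654, 8913 and 8279 counts in the WT libraries, the direction that the labels give. Of 8 macrophage markers, 8 were tested and 2 (*Mertk* and *Fcgr1*) were higher in PP2A-KO. Over all genes tested, 37.1% were called at an adjusted p under 0.05 (edgeR), 18.1% higher and 19.0% lower. With the replicate number as a block, *Csf1r*, *Cd14* and *Lyz2* were higher as well (adjusted p = 0.0028, 0.0049 and 0.012 from edgeR). That fit called 50.9% of all genes. *Lyz2* had the fewest counts of these markers, 365, 260 and 421 in PP2A-KO and 327, 304 and 349 in WT. Its promoter drives Cre in PP2A-KO cells, and the effect of that allele on its reads was not tested. The 4 fibroblast collagen and matrix markers were all lower in PP2A-KO, with summed levels of 22.7 to 33.4 CPM (counts scaled to library size) against 74.9 to 117.7 CPM in WT, and the proliferation genes *Mki67* and *Top2a* summed to 38.6 to 44.1 CPM against 75.7 to 99.1 CPM. In bulk libraries, fewer cells of a type and less RNA per cell cannot be told apart. The part of these markers in the results below was not tested.

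Promoter sequences are printed for *Capn11*, the member with reads in PP2A-KO libraries alone, and for *Capn1* and *Capn2*, the classical pair, whose fold changes had opposite signs. The RefSeq promoter table (GRCm38.p6) held 16 windows for 9 of the 10 members and none for *Capn5*. The windows ran from 250 bases before to 50 bases after an annotated start. Each window is written 5′ to 3′ on the gene's own strand, and capitals mark CG dinucleotides. They lie on the reverse strand at chr17:45659260-45659559 (*Capn11*), chr19:6015776-6016075 (the outer of the *Capn1* windows) and chr1:182517561-182517860 (*Capn2*).
Capn11: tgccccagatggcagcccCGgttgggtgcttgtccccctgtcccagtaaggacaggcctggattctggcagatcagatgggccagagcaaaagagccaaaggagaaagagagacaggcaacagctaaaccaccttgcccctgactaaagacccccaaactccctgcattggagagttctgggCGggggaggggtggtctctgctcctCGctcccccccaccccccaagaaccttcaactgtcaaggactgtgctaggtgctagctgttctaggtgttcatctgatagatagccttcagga
Capn1: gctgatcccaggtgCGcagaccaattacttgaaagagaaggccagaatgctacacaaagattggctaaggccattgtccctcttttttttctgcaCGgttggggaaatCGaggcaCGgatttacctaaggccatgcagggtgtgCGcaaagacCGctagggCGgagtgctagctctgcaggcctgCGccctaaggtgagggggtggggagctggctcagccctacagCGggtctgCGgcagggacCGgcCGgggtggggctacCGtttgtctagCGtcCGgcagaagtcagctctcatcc
Capn2: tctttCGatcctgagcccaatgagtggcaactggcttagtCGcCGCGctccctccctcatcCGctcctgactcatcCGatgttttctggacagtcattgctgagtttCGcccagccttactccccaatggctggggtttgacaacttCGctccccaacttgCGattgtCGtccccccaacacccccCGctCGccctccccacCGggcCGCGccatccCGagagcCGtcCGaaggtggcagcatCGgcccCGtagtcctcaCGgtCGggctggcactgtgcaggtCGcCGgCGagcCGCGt
The *Capn11* window held 3 CG dinucleotides, and 31.4% of the 32851 mouse windows in the table held as few. The *Capn1* window held 15 and the *Capn2* window 27, against a median of 7 over all windows, and 34.6% and 15.5% of windows held at least as many.

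Letters of 5 motifs were searched on both strands of all windows, with motifs allowed to overlap. The AP-1 letters TGANTCA, found in 7.81% of all windows, occurred in the *Capn2* window as tgactca, beginning 183 bases before the start. The GAS letters TTCNNNGAA (8.30% of all windows) and the TEAD letters GGAATG (14.7%) each occurred in a *Cast* window. The interferon-stimulated response element, searched by its core (3.44%), and the NF-kB motif (4.5%) occurred in no member window. *Capn5* had no window, so its promoter was not searched. A match or its lack describes these letters and does not show whether a factor binds.

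*Capn11* encodes a large calpain subunit of the classical type that is known mainly from the testis. It lies on the reverse strand at chr17:45630204-45659325 in GRCm38 (ENSMUSG00000058626.16) and has 23 exon blocks that together cover 2708 bp. It had 39, 28 and 28 counts in the 3 PP2A-KO libraries and 0 counts in each of the 3 WT libraries. Every PP2A-KO library was thus above every WT library, although the gene was at a low level in absolute terms. The PP2A-KO level was 0.813 ± 0.128 CPM (SD, n = 3). Against 3 counts in each WT library, the limit that a count of 0 allows (0.0604 to 0.0716 CPM), *Capn11* was at least 12.1-fold higher in PP2A-KO as a ratio of group means. The lowest PP2A-KO library over the highest WT limit gave 9.38. Such limits cover counting error only, and not the choice of the family on these same counts.

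Per kb of exon, *Capn11* in PP2A-KO stood at 0.300 CPM, which was below *Capn10* at 2.30 CPM and above *Capn3* at 0.0515 CPM. None of the 2755 windows of 50 bases in its transcripts occurred in another annotated gene, and no other gene overlapped its exons. In the whole table, 73 genes had 0 counts in every WT library and at least 1 count in each PP2A-KO library, and *Capn11* had the most counts of these, 95 in total. The next 4 were *Igkv19-93* with 20, *2410003L11Rik* with 18, *Igkv6-25* with 15 and *Rasgef1c* with 13, and the median was 4. This rank of *Capn11* rests on the same counts by which the family was chosen, so it is a description only. In the mirrored set, 133 genes had reads in each WT library and none in PP2A-KO, and the highest of these, *Gm9522* with 186 counts in total and *Igkv5-39* with 142, had more counts than *Capn11*.

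Markers of male germ cells were examined beside *Capn11*. Of 8 markers, 5 (*Tnp1*, *Prm2*, *Acrv1*, *Ldhc* and *Pgk2*, genes of meiotic and postmeiotic germ cells) had 0 counts in all 6 libraries. *Ddx4*, the germ-cell RNA helicase Vasa, was the only marker that could be tested, and it was higher in PP2A-KO with 317, 185 and 239 counts against 179, 81 and 70 (log2 fold change 1.38, SE 0.26, adjusted p = 0.0030 from edgeR). The groups of *Ddx4* did not overlap. The summed level of all 8 markers was 5.69 to 7.90 CPM in PP2A-KO and 1.69 to 3.64 CPM in WT, of which *Ddx4* alone made up 5.60 to 7.47 CPM and 1.67 to 3.60 CPM.

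**Figure D1:**
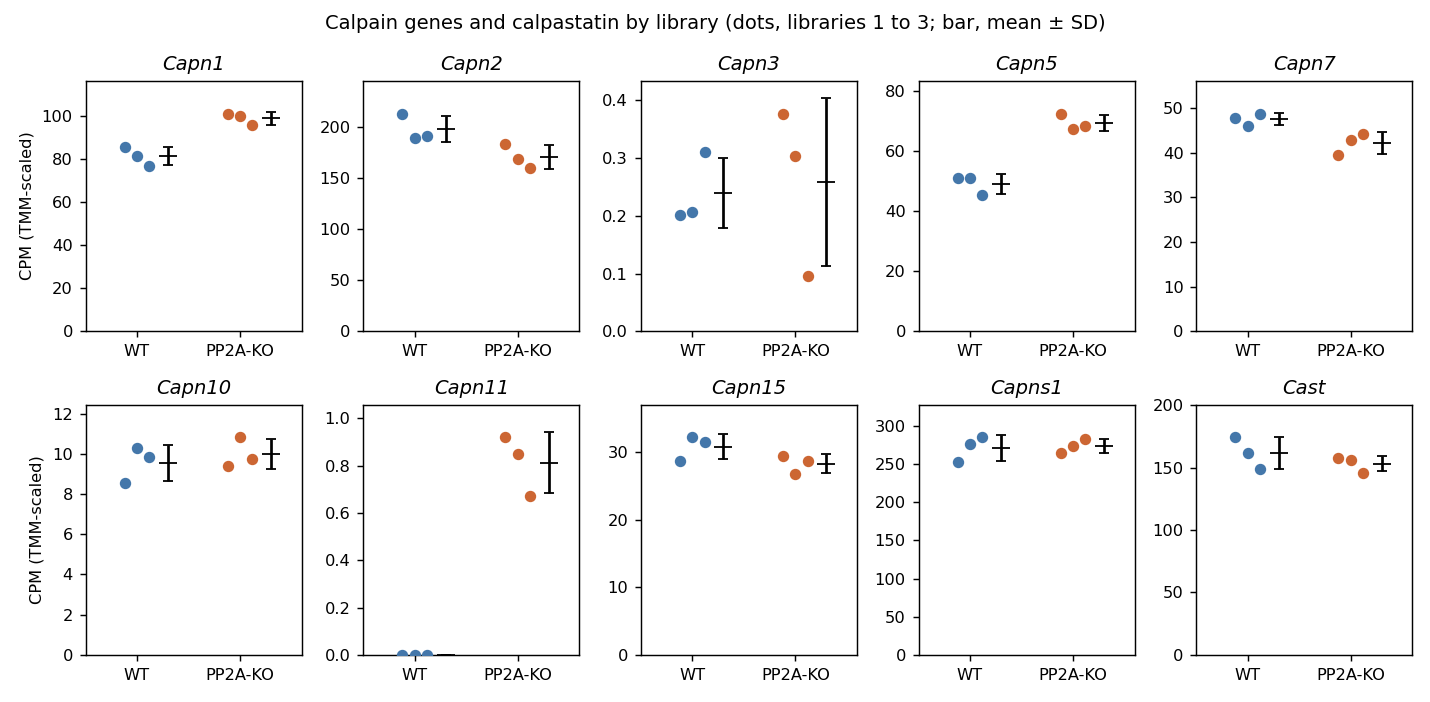
Level of each of the 10 genes in every library, in CPM after TMM scaling, on axes that start at 0; dots are libraries and the bar is the mean ± SD of 3 libraries. Groups do not overlap for *Capn1*, *Capn2*, *Capn5*, *Capn7* and *Capn11*, and *Capn11*, on whose counts the family was chosen, lies at 0 in all WT libraries. Groups did not overlap for 50.9% of all genes tested.

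The large subunits of the classical enzymes had fold changes of opposite sign, and that of *Capn1* passed the test. *Capn1*, the catalytic subunit of µ-calpain (chr19:5988545-6015897, reverse strand), had 101.2, 100.1 and 95.8 CPM in PP2A-KO and 85.6, 81.7 and 77.0 CPM in WT. All 3 PP2A-KO libraries were above all WT libraries. The mean was 99.0 ± 2.88 CPM against 81.4 ± 4.31 CPM (SD, n = 3), and the log2 fold change was 0.28 (SE 0.063, 95% interval 0.14 to 0.42, adjusted p = 0.0069 by the quasi-likelihood F-test of edgeR, Benjamini-Hochberg). The call was lost when libraries were scaled by their totals alone (0.07, adjusted p = 0.36), a scaling under which the median of all genes tested was -0.24.

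*Capn2*, the catalytic subunit of m-calpain (chr1:182467260-182517608, reverse strand), had 183.6, 169.2 and 160.1 CPM in PP2A-KO and 213.2, 189.7 and 191.7 CPM in WT. Here all PP2A-KO libraries were below all WT libraries. The log2 fold change was -0.21 (SE 0.077, 95% interval -0.39 to -0.04), which did not pass the threshold (adjusted p = 0.056 from edgeR). It passed when the replicate number was a block (adjusted p = 0.0014 from edgeR), and within numbers 1, 2 and 3 the log2 difference in CPM was -0.22, -0.16 and -0.26. Of the 6 fits that left out a library, it passed in the fit without library 1 of PP2A-KO (-0.27, adjusted p = 0.033) and in none of the other 5 (adjusted p = 0.068 to 0.18 from edgeR). The noncoding gene *Gm37885* overlaps 1717 bp of *Capn2* exon on the opposite strand, and the strand setting of the counting is not given in the sources used here.

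The balance between *Capn1* and *Capn2* was also taken within each library, where the scaling between libraries cancels. It was not among the planned ratios, and it restates the fold changes of both genes, of which that of *Capn2* did not pass. The ratio of *Capn1* to *Capn2* counts per kb of exon was 1.05, 1.12 and 1.14 in PP2A-KO and 0.762, 0.817 and 0.763 in WT. The 3 PP2A-KO ratios all exceeded the WT ratios. The share of other gene pairs whose ratios lie apart between the groups in this way was not determined. The mean ratio was 1.10 ± 0.048 against 0.780 ± 0.031 (SD, n = 3), a 1.41-fold difference. With 3 libraries a group, an exact permutation test cannot give a two-sided p-value below 0.1, and none is given. With the length of the longest transcript in place of the exon union, the mean ratios were 0.612 and 0.433, so which of the pair is the more abundant depends on the length used. A change of length multiplies this ratio by the same factor in every library, so it cannot alter the fold between the groups. The summed level of *Capn1* and *Capn2* was 56.6 ± 2.68 CPM per kb in PP2A-KO and 55.6 ± 3.18 CPM per kb in WT (SD, n = 3), a difference within the spread of the libraries.

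The small subunit and the inhibitor, which both classical enzymes share, did not pass the test. *Capns1* (chr7:30186936-30198811, reverse strand) had 264.2, 273.4 and 282.9 CPM in PP2A-KO and 252.5, 275.9 and 285.2 CPM in WT, so that the ranges overlapped. Its log2 fold change was 0.01 with a 95% interval of -0.15 to 0.17 (adjusted p = 0.91 from edgeR). *Cast* (chr13:74692368-74808810, reverse strand) had 157.8, 155.9 and 145.9 CPM in PP2A-KO and 174.1, 161.9 and 148.8 CPM in WT, again with overlap. Its log2 fold change was -0.08 with a 95% interval of -0.24 to 0.09 (adjusted p = 0.45 from edgeR). Of the 50-base windows in *Cast* transcripts, 3.475% also occur in other genes, 329 in all, so some reads could be divided among them. The intervals of both genes hold for TMM scaling and do not cover the choice of scaling. With library totals alone, *Capns1* was at -0.20 (adjusted p = 0.049) and *Cast* at -0.29 (adjusted p = 0.0048, both from edgeR). Both values lie outside the intervals, under a scaling that put the median of all genes tested at -0.24.

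Relative to the summed *Capn1* and *Capn2* level per kb, *Cast* was 0.232, 0.240 and 0.236 in PP2A-KO and 0.256, 0.260 and 0.244 in WT. These ranges did not overlap, but with longest transcripts the means were 0.349 and 0.357 and the ranges did (0.341 to 0.356 against 0.342 to 0.368). *Capns1* over the same sum was 1.96 ± 0.16 in PP2A-KO and 1.98 ± 0.23 in WT (SD, n = 3), a difference below the spread between libraries.

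**Figure D2:**
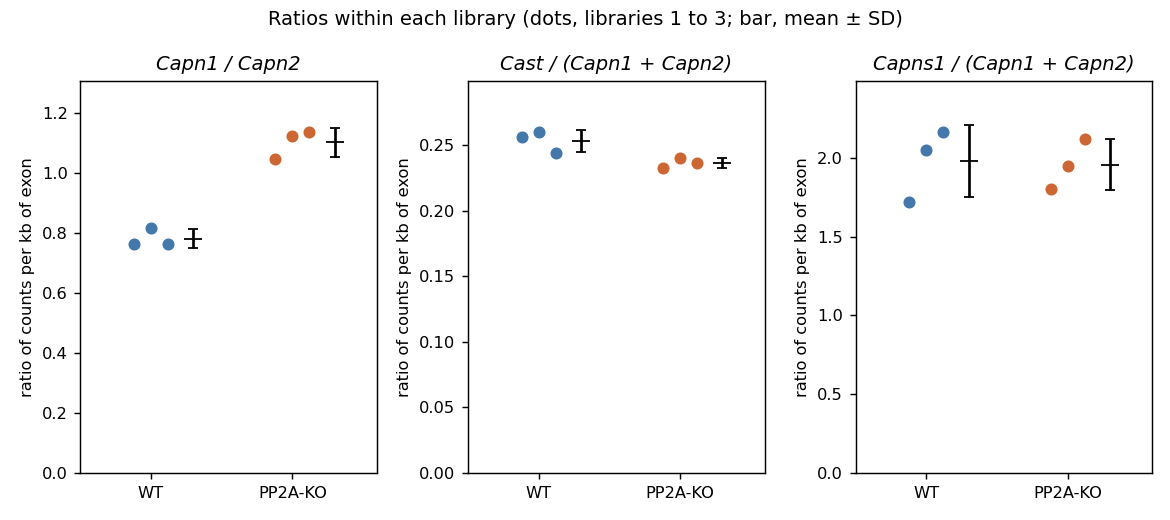
Ratios of counts per kb of exon within each library for *Capn1* over *Capn2*, *Cast* over the sum of both and *Capns1* over the sum of both; dots are libraries and the bar is the mean ± SD of 3 libraries. The *Capn1* to *Capn2* ratio is 1.05 to 1.14 in PP2A-KO and 0.762 to 0.817 in WT, and the *Capns1* ratios overlap.

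*Capn5*, a non-classical calpain without the calcium-binding EF-hand domain of the classical large subunits, changed the most among the members apart from *Capn11*. It lies on the reverse strand at chr7:98121559-98178274. Its level was 72.3, 67.2 and 68.3 CPM in PP2A-KO and 50.9, 50.9 and 45.2 CPM in WT. All PP2A-KO libraries were above all WT libraries. The mean rose from 49.0 ± 3.30 CPM to 69.3 ± 2.68 CPM (SD, n = 3), with the log2 fold change at 0.50 (SE 0.067, 95% interval 0.35 to 0.65, adjusted p = 5.3e-04 from edgeR), or 41.4%. *Capn5* passed the test under every alternative run, with log2 fold changes of 0.28 to 0.53.

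*Capn7*, a non-classical calpain known to bind ESCRT proteins (chr14:31336638-31371986, forward strand), had 39.4, 42.8 and 44.3 CPM in PP2A-KO and 47.9, 46.1 and 48.8 CPM in WT. The PP2A-KO libraries were all lower, by a log2 fold change of -0.17 (SE 0.063, adjusted p = 0.057 from edgeR). As with *Capn2*, this did not pass, and it passed with the replicate block (adjusted p = 0.0097 from edgeR).

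The other non-classical members had overlapping groups. *Capn10* (chr1:92934376-92947941, forward strand), which has been studied as a diabetes susceptibility gene, had 8.56 to 10.3 CPM in WT and 9.41 to 10.8 CPM in PP2A-KO. Its log2 fold change was 0.06 with a 95% interval of -0.16 to 0.28 (adjusted p = 0.66 from edgeR). *Capn15* (chr17:25958364-25985796, reverse strand), the homolog of the *Drosophila* gene small optic lobes, had 28.6 to 32.2 CPM in WT and 26.7 to 29.4 CPM in PP2A-KO. Its log2 fold change was -0.12 with a 95% interval of -0.28 to 0.04 (adjusted p = 0.21 from edgeR).

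*Capn3* encodes the large subunit best known from skeletal muscle (chr2:120456019-120504913, forward strand). It was near the limit of detection, with 16, 10 and 4 counts in PP2A-KO and 10, 9 and 13 counts in WT. The groups overlapped, and the 95% interval of the log2 fold change, -0.96 to 1.18, included 0. These counts are thus compatible with a rise or a fall within these bounds. The gene shares 386 bp of exon with *Ganc* on the same strand, and 6.32% of its 50-base windows also occur there, so reads could be divided between them.

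In WT the level per kb of exon was highest for *Capns1* (109.5 CPM), followed by *Capn2* (31.2 CPM), *Capn1* (24.4 CPM), *Cast* (14.1 CPM), *Capn7* (9.73 CPM), *Capn5* (8.93 CPM), *Capn15* (5.37 CPM), *Capn10* (2.20 CPM) and *Capn3* (0.0477 CPM). No neighbours in this order overlapped in their range over the 3 WT libraries, but the order rests on exon-union lengths. With longest transcripts, *Cast* (31.4 CPM per kb) was above *Capn1* (26.6 CPM per kb) and *Capn5* (10.9 CPM per kb) above *Capn7* (10.2 CPM per kb) in WT. In PP2A-KO, *Capn5* (12.6 CPM per kb) stood above *Capn7* (8.62 CPM per kb), the reverse of the WT order on exon unions, whereas with longest transcripts *Capn5* was above *Capn7* in both groups. Also in PP2A-KO, the ranges of *Capn1* and *Capn2* overlapped, as did those of *Cast* and *Capn5*. Annotated genes overlap exons on the opposite strand of *Capn1* (*Gm10814*), *Capn7* (*Sh3bp5*), *Capn10* (*9430060I03Rik*), *Capn15* (*Gm26694* and *D630044L22Rik*), *Capns1* (*Gm26810*) and *Cast* (*Erap1*), so these levels could include reads of a partner, whereas *Capn5* and *Capn11* have no such overlap.

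**Figure D3:**
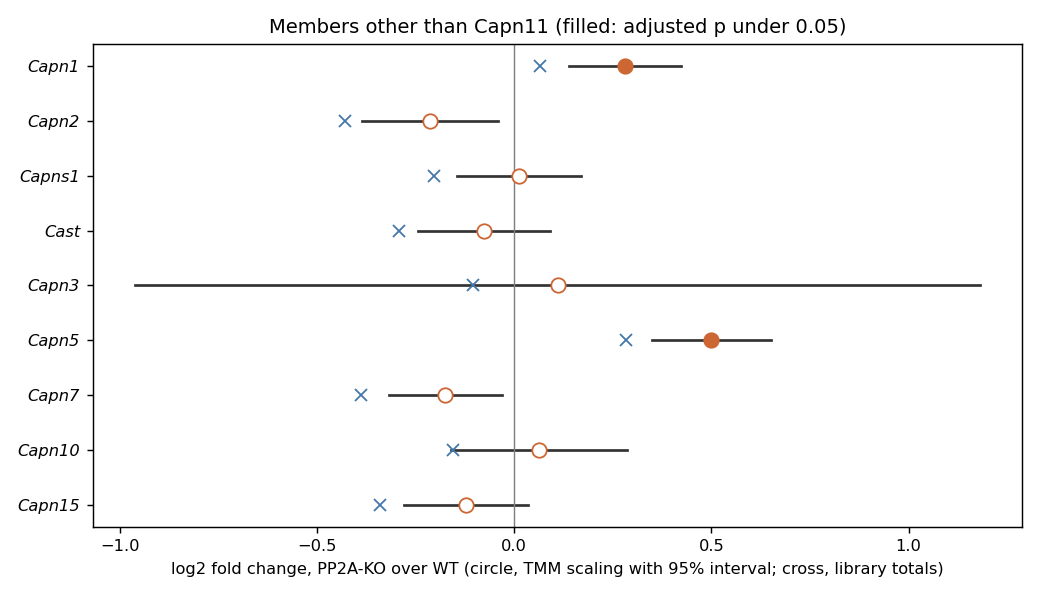
Log2 fold change of PP2A-KO over WT for the 9 members other than *Capn11*; circles and lines are the TMM-scaled estimate and its 95% interval, filled where the adjusted p is under the threshold, and crosses are estimates with library totals alone. *Capn1* (0.28) and *Capn5* (0.50) are filled, and every cross lies to the left of its circle.

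Among the 9 members apart from *Capn11*, 2 were called higher, 0 lower and 7 were not called at an adjusted p under 0.05 (edgeR). Over all 13680 genes tested, 37.1% were called, 18.1% higher and 19.0% lower. With the replicate block, 2 members were higher and 2 lower, where 50.9% of all genes were called. The groups did not overlap for 4 of the 9, against 50.9% of all genes. None of the 9 passed a stricter rule (adjusted p under 0.01 and a log2 fold change over 1 in size), which 6.35% of all genes did. Their median absolute log2 fold change was 0.12 and that of all genes tested 0.23, and 25.0% of all genes changed by more than *Capn5*. The upward and downward values had a median of 0.01, against -0.02 for all genes.

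**Figure D4:**
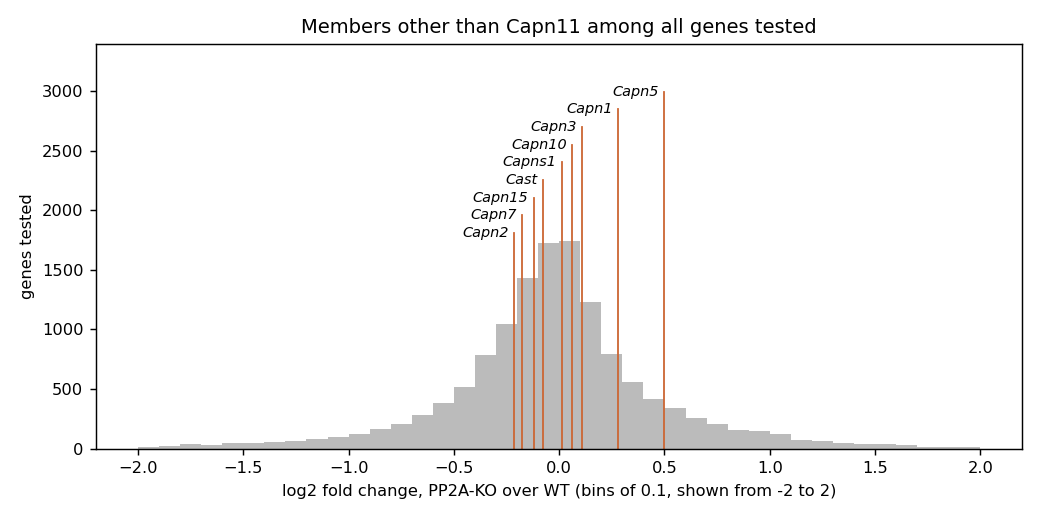
Distribution of log2 fold changes over the 13680 genes tested, in bins of 0.1 and shown from -2 to 2, with the 9 members other than *Capn11* marked by lines whose height has no meaning. The members lie between -0.21 and 0.50.

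Calpain genes outside the 10 had few reads. *Capn6* and *Capn13* had 0 counts in all 6 libraries, which allows up to 0.0604 to 0.0909 CPM. *Capn8* and *Capn9*, known from the stomach, had at most 2 counts in any library, and *Capn12*, known from skin, at most 5. *Capns2*, an intronless relative of *Capns1*, had 25, 10 and 12 counts in PP2A-KO and 13, 6 and 7 in WT. The groups did not overlap in CPM, and the log2 fold change of 1.05 (SE 0.42) did not pass (adjusted p = 0.078 from edgeR), but passed with the replicate block (adjusted p = 0.029). *Adgb*, which encodes androglobin, a calpain-globin fusion, had 191, 100 and 158 counts against 128, 106 and 144. Its groups overlapped, and its log2 fold change of 0.43 (SE 0.18) likewise passed only with the block (adjusted p = 0.096 without and 0.029 with it, from edgeR).

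Genes around *Capn11* were compared to see whether its neighbourhood moved as a whole. Of 14 annotated genes within 100 kb, 7 passed the filter on low counts and 1 of these was called (14.3%, against 37.1% of all genes tested). *Nfkbie*, which encodes the NF-κB inhibitor IκBε, lies 67.0 kb from *Capn11* and had 10993, 7310 and 8017 counts in PP2A-KO against 3944, 3230 and 2754 in WT. Each PP2A-KO library exceeded each WT library, with a log2 fold change of 1.62 (SE 0.12, adjusted p = 5.4e-05 from edgeR). The nearest gene upstream of the *Capn11* start, *Tmem63b*, at a gap of 846 bp, had 1212, 983 and 1201 counts against 1362, 1428 and 1319, with a log2 fold change of -0.07 (95% interval -0.25 to 0.10, adjusted p = 0.48).

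The other tested neighbours had adjusted p-values of 0.076 or more. These were *Slc29a1*, a nucleoside transporter, at -0.17, *Slc35b2*, a Golgi transporter of sulfate donor, at -0.02, the chaperone *Hsp90ab1* at 0.07, *Mrpl14*, of the mitochondrial ribosome, at 0.07 and the noncoding *F630040K05Rik* at 0.03 on the log2 scale. Of these, *Slc29a1* was called lower with the replicate block (adjusted p = 0.018 from edgeR). The remaining 7, *Tcte1*, *Tmem151b*, *Gm17080*, *Mymx*, *Gm25008*, *Gm16172* and *1600014C23Rik*, had 0 to 6 counts in any library.

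**Figure D5:**
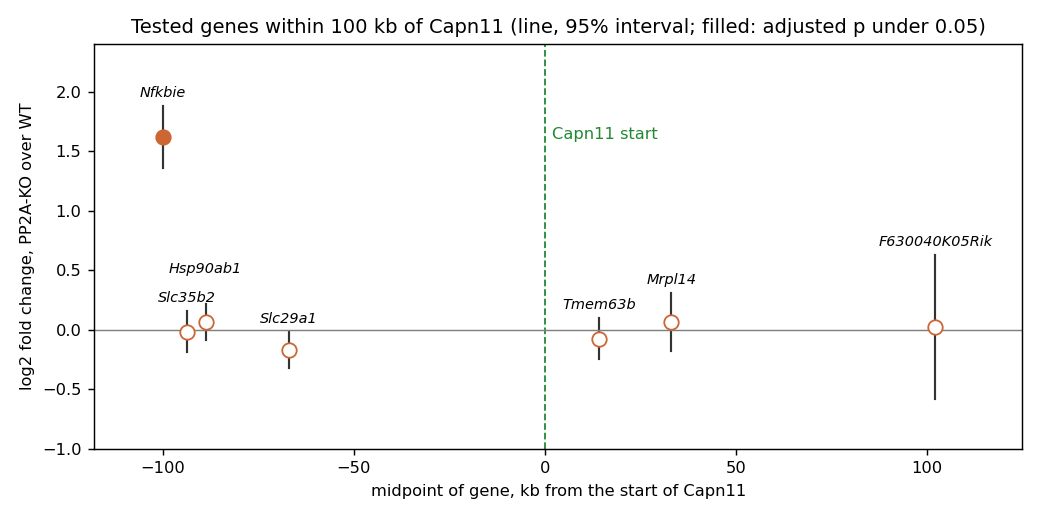
Log2 fold change of PP2A-KO over WT for the 7 tested genes within 100 kb of *Capn11*, against the distance in kb of the gene's midpoint from the start of *Capn11*; lines are 95% intervals and filled points passed the test. *Nfkbie* lies at 1.62 and the other 6 between -0.17 and 0.07.

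Genes whose protein products are known calpain substrates were described from a list of 34, of which 33 were tested. Of these, 8 were higher, 6 lower and the others were not called, that is 42.4% called against 37.1% of all genes, with a median log2 fold change of 0.09 against -0.02. The largest increases were *Nfkbia*, encoding IκBα (1.49, SE 0.071), *Bid*, a BH3-only death agonist (0.67, SE 0.063), and *Ptk2*, focal adhesion kinase (0.61, SE 0.16). The largest decreases were *Cttn*, cortactin (-0.73, SE 0.20), *Itgb3*, integrin β3 (-0.64, SE 0.10), and *Vcl*, vinculin (-0.61, SE 0.071). With the replicate block, 14 were higher and 10 lower, in a fit that called 50.9% of all genes. These are levels of the substrates' RNA, and cleavage was not measured.

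*Nfkbia* had 15446, 10833 and 13665 counts in PP2A-KO and 6250, 5090 and 4995 in WT, so that its groups lay apart. *Vcl* had 1668, 1251 and 1709 counts in PP2A-KO and 3029, 2401 and 2695 in WT, also without overlap. Among other cytoskeletal substrates, talin (*Tln1*, 0.19), filamin A (*Flna*, -0.25) and αII-spectrin (*Sptan1*, -0.22) did not pass, with adjusted p-values of 0.30, 0.13 and 0.079 (edgeR). These passed with the replicate block (adjusted p = 0.0077, 4.1e-04 and 8.6e-04 from edgeR). Ezrin (*Ezr*, 0.49, adjusted p = 0.0086) was called higher and vimentin (*Vim*, -0.38, adjusted p = 0.0065) lower without it (edgeR).

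Calcium, which activates the classical calpains, reaches the cytosol through the plasma membrane and from the endoplasmic reticulum. Of 31 genes for calcium entry, removal, stores and sensing, 30 were tested, 10 were higher and 2 lower. Removal is represented by *Slc8a1* and the pumps *Atp2b1*, *Atp2b2* and *Atp2b4*, so these counts give no direction of calcium flow. The called share was 40.0% against 37.1% of all genes (18.1% higher and 19.0% lower), and the median log2 fold change was 0.12. The largest increases were *Itpr1*, an inositol trisphosphate receptor of the endoplasmic reticulum (1.81, SE 0.27), the cation channel *Trpm2* (0.87, SE 0.17) and the sodium-calcium exchanger *Slc8a1* (0.62, SE 0.11). The genes that fell were the calcium-activated cation channel *Trpm4* (-0.67, SE 0.11) and the ATP-gated channel *P2rx7* (-0.21, SE 0.063).

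*Itpr1* had 4968, 2694 and 3064 counts in PP2A-KO and 1902, 832 and 827 in WT. Its groups did not overlap, although library 1 was high in each. The store-operated channel gene *Orai1* (-0.29, adjusted p = 0.096) and its activator *Stim1* (0.05, adjusted p = 0.58) did not pass (edgeR), although *Orai1* did with the replicate block (adjusted p = 0.0023), while *Orai2* was higher (0.25, adjusted p = 0.029). With the replicate block, which called 50.9% of all genes, 15 calcium genes were higher and 5 lower.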

How the data were processed

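Poly(A) RNA from 6 BMDM samples was sequenced in paired ends after strand-specific library preparation. The authors deposited 1 table of unnormalized read counts per gene symbol. The submitters' processing notes name fastp 0.20.0, kallisto 0.46.1, STAR 2.7.1a, HTSeq 0.11.2, edgeR 3.34.0 and limma 3.48.3 without stating their roles, and give mm10. The annotation release and the strand setting are not given in the sources used here, so antisense and overlapping genes may share reads. Of the gene symbols, 98.4% were found in GENCODE M21, which gave coordinates and exon lengths, and 30767 had no count in any library.

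Groups were taken from the labels. The analysis of counts used edgeR 4.0.16 (R 4.3.3), with filterByExpr (minimum count 10, minimum total 15), TMM scaling, and glmQLFit and glmQLFTest for genotype. Adjusted p-values are Benjamini-Hochberg values across the 13680 genes that passed. A gene was called at an adjusted p under 0.05. CPM use TMM factors (0.910 to 0.937 in PP2A-KO and 1.05 to 1.10 in WT), errors of CPM and ratios are SD, and intervals are 95%. Levels per kb were divided by the union of a gene's exons. The same replicate numbers occur in both groups, and deviations from group means correlated within numbers (0.29, 0.15 and 0.34). A blocked fit on that number was therefore also made, and its value is given beside named genes whose call it changes. The labels do not say whether libraries of the same number share a batch. The study gives different sources for its PP2A-KO and WT mice, and it describes no shared litters. Correlations between unlike numbers are not given for comparison, so calls made with the block alone rest on an unverified pairing. No group held a pair of libraries that agreed within sampling noise (chi-square per gene 9.54 to 46.0).

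Genes were named by a rule: all members, the other calpain genes, genes within 100 kb of *Capn11*, the 3 largest called increases and decreases on the substrate and calcium lists, and the 5 genes with most counts among those at 0 in WT alone. *Tln1*, *Flna*, *Sptan1*, *Ezr*, *Vim*, *Orai1*, *Orai2*, *Stim1*, *Gm9522* and *Igkv5-39* were named after their values were seen. Members, lists and markers were chosen with earlier results of these data known, and *Capn11* passed the filter on low counts through PP2A-KO alone. Alternatives were scaling by upper quartile or RLE, no filter, at least 10 counts in every library, the block, each library left out, DESeq2 1.42.0, limma-voom (limma 3.58.1) and longest-transcript lengths. Scaling by library totals was added after the data were seen, and the ratio of *Capn1* to *Capn2* was not among the planned ratios. The fit was tested on simulated data with far fewer changed genes than were called here. Those data held no general shift in composition between the groups, so that test does not bear on the choice of scaling. Further marker lists were neutrophil (1 of 6 tested), T and NK (0 of 3), B (1 of 3), skeletal muscle (1 of 4) and erythroid genes (0 of 2), with none called, and dendritic genes (2 of 4), with *Siglech* higher.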

Additional observations from a re-analysis of the deposited data

How the results depend on the processing

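With 3 libraries a group, changes of about the size of the *Capn2* and *Capn7* differences lay at the threshold. Library totals alone, chosen after seeing the data, shifted the median over all genes by -0.22 on the log2 scale. They gave 7628 called genes, 1503 higher and 6125 lower, against 5074 in the main fit, 2470 higher and 2604 lower. Of the calls in the main fit 48.7% were higher, against 38.4% with upper-quartile scaling (2095 higher and 3356 lower) and 19.7% with library totals. Called members apart from *Capn11* numbered 2 in the main fit, 4 with upper-quartile scaling (2 higher, 2 lower), 6 with library totals (1 higher, 5 lower) and 4 with the replicate block (2 higher, 2 lower). Under library totals *Capn1* was no longer called and *Capn2*, *Capn7*, *Capn15*, *Capns1* and *Cast* were called lower. *Capn2* was also called with no filter (-0.22, adjusted p = 0.040 from edgeR) and *Capn7* with at least 10 counts in every library (-0.18, adjusted p = 0.0497), a filter that *Capn3* did not pass.

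With the replicate block 24 substrates (14 without), 20 calcium genes (12 without) and 2 genes near *Capn11* (1 without) were called, and the block changed no call of a member other than *Capn2* and *Capn7*. Near *Capn11*, 2 genes were called with upper-quartile scaling, 4 with library totals and 1 to 2 when a library was left out, 2 without library 1 of WT. The *Cast* ratio differed between groups by -0.017 with exon unions and by -0.0076 with longest transcripts. Signs turned for *Capn3* with library totals (-0.11) and limma-voom (-0.060), and with a library left out it ran from -0.33 to 0.53. They turned for *Capn10* with upper-quartile scaling (-0.0019) and library totals (-0.15), with -0.013 to 0.12 when a library was left out. For *Capns1* the values were -0.052, -0.20 and -0.036 to 0.051. The cause of these changes was not tested. With a library left out, 3847 to 5441 genes, 10 to 16 substrates and 9 to 16 calcium genes were called.
In the other comparisons with an alternative, 102 fold changes of members kept their direction and side of the threshold, and 73 counts and ratios stayed within 1.5 times or within the replicate spread.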
